A study of Mus musculus with 12 samples.

Results

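Cathepsins are the proteases that break down protein inside lysosomes and late endosomes. The measurements below cover 10 mouse cathepsin genes in liver (Ctsa, Ctsb, Ctsc, Ctsd, Ctse, Ctsh, Ctsk, Ctsl, Ctss and Ctsz), chosen by name as the rows of the expression table with those identifiers, out of 19852 genes in all. The study compared liver transcripts of mice with lasting expression of interferon-gamma with those of control littermates, in each sex. All mice were C57BL/6, aged 20 weeks, and RNA came from whole frozen liver. The 4 groups of 3 libraries were female wild type (WT), female ARE-Del, male WT and male ARE-Del. ARE-Del mice lack the AU-rich element of the Ifng mRNA, a stretch that shortens the life of that message, and the extraction text of the labels writes their genotype as ARE-Del-/-. The labels name no Cre line, promoter, drug or batch.

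Cathepsins are made as inactive precursors, are sorted to lysosomes largely by mannose-6-phosphate receptors and become active in the acid lumen. Most are cysteine proteases (B, C, H, K, L, S and Z), while D and E are aspartic proteases and A is a serine carboxypeptidase. In antigen-presenting cells they also cut the invariant chain off MHC class II molecules, and in liver they are made by hepatocytes and, at high levels, by resident macrophages, the Kupffer cells.

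Values are RPKM, reads scaled to transcript length and to library size, which allows levels to be compared between genes. Summed RPKM ran from 173476 to 208647 per library, and depth, known only relative to female WT 1, from 0.909 to 1.45. Ifng, whose message the allele stabilises, was listed at 0 to 0.0382 RPKM in WT and at 0.0742 to 0.238 RPKM in ARE-Del libraries. Albumin (Alb), the main product of hepatocytes, was at 16223 to 34499 RPKM in the 12 libraries. The library labelled female ARE-Del 2 listed Xist, the RNA of the inactive X chromosome, at 0.0456 RPKM against 33 to 45.6 RPKM in the other female libraries, and like them it listed the Y-linked gene Ddx3y at 0, against 9.34 to 13.5 RPKM in males. The female genotype differences of the cathepsins and the sex differences called in ARE-Del are therefore also given without it. The labels give 3 per group without saying how the samples were taken, so p-values measure only the spread between these samples.

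RefSeq promoter windows (build GRCm38.p6, 250 bases before to 50 after the start) were found for 7 of the 10 genes, with 8 windows in all since Ctsa has a pair. They were searched on both strands for 5 motifs. GAAANNGAAA is the form bound by interferon regulatory factors and lay in 3.44% of all 32851 windows. TTCNNNGAA, the form of interferon-gamma-activated sites (GAS), lay in 8.3%, and GAGGAAGT, the form bound by PU.1 of macrophages, in 3.2%. The E-box CACGTG lay in 7.15%, and TCACGTGA, which contains it and is a form bound by TFEB, the regulator of lysosomal genes, in 0.974%. The stretches below belong to the pair of cathepsins with the largest genotype differences, Ctss and Ctsc, and to Ctsd and Ctsa, whose windows hold TCACGTGA. Capitals mark motif matches, ACTTCCTC is GAGGAAGT read on the other strand, and positions count from the start site, with -1 the last base before it.
Ctss, chr3:95526536-95526785, plus strand, -250 to -1: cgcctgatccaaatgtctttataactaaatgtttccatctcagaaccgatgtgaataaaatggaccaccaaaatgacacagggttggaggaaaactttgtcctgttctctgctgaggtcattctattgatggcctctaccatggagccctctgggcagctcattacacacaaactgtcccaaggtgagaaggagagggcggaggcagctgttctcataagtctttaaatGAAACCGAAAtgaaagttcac
Ctss, chr3:95526765-95526791, plus strand, -21 to 6: GAAACCGAAAtgaaagttcACTTCCTC
Ctsc, chr7:88277835-88278023, plus strand, -250 to -62: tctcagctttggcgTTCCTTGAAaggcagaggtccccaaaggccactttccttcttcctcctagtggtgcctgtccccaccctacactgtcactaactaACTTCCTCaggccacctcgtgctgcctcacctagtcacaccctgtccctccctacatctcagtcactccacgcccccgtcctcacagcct
Ctsd, chr7:142387908-142387937, minus strand, -110 to -81: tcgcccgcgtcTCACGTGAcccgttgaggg
Ctsa, chr2:164833758-164833787, plus strand, -15 to 15: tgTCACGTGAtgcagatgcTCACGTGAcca

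The Ctss window held GAAACCGAAA at -21 to -12 and a PU.1-type match across the start site at -2 to 6. The Ctsc window held a GAS-type match at -236 to -228 and a PU.1-type match at -151 to -144. TCACGTGA lay at -99 to -92 of Ctsd, whose window had a further CACGTG at -245 to -240. TCACGTGA also lay at -13 to -6 and again at 5 to 12 in the second Ctsa window. Ctsl held only CACGTG, at -236 to -231, and the windows of Ctsk, Ctsz and the first of Ctsa held none of the 5. Ctsk and Ctss, which neighbour each other on chromosome 3, had the lowest share of G and C, at 43.7% and 44% against 50% to 67.3% in the other windows. These matches describe letters only, and no binding was measured.

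In WT livers 8 of the 10 cathepsins were well expressed and 2 were near the lower limit. Ctsd was highest in females at 100.02 ± 12.2 RPKM (SD, n = 3 here and below), followed by Ctsb at 82.2 ± 10.4, Ctsl at 74.6 ± 0.166 and Ctsz at 52.1 ± 2.0. Ctsh (25.7 ± 2.93), Ctsc (24.5 ± 3.93) and Ctss (23.2 ± 5.98) came next, with ranges that overlapped. Ctsa lay at 14.1 ± 1.09, while Ctse (0.635 ± 0.0880) and Ctsk (0.130 ± 0.0383) were below 1 RPKM. Of the upper neighbours, Ctsd overlapped Ctsb and Ctsb overlapped Ctsl, whereas Ctsl, Ctsz and Ctsh stood apart from each other. Male WT livers had the same first 4 genes, with Ctsb (59.1 ± 5.13) and Ctsl (59.0 ± 4.01) level, followed by Ctsh (22.6 ± 0.891), and ended with Ctss (14.1 ± 3.68), Ctsa (12.2 ± 1.74) and Ctsc (10.6 ± 2.0), Ctse (0.788 ± 0.308) and Ctsk (0.102 ± 0.0318).

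**Figure D1:**
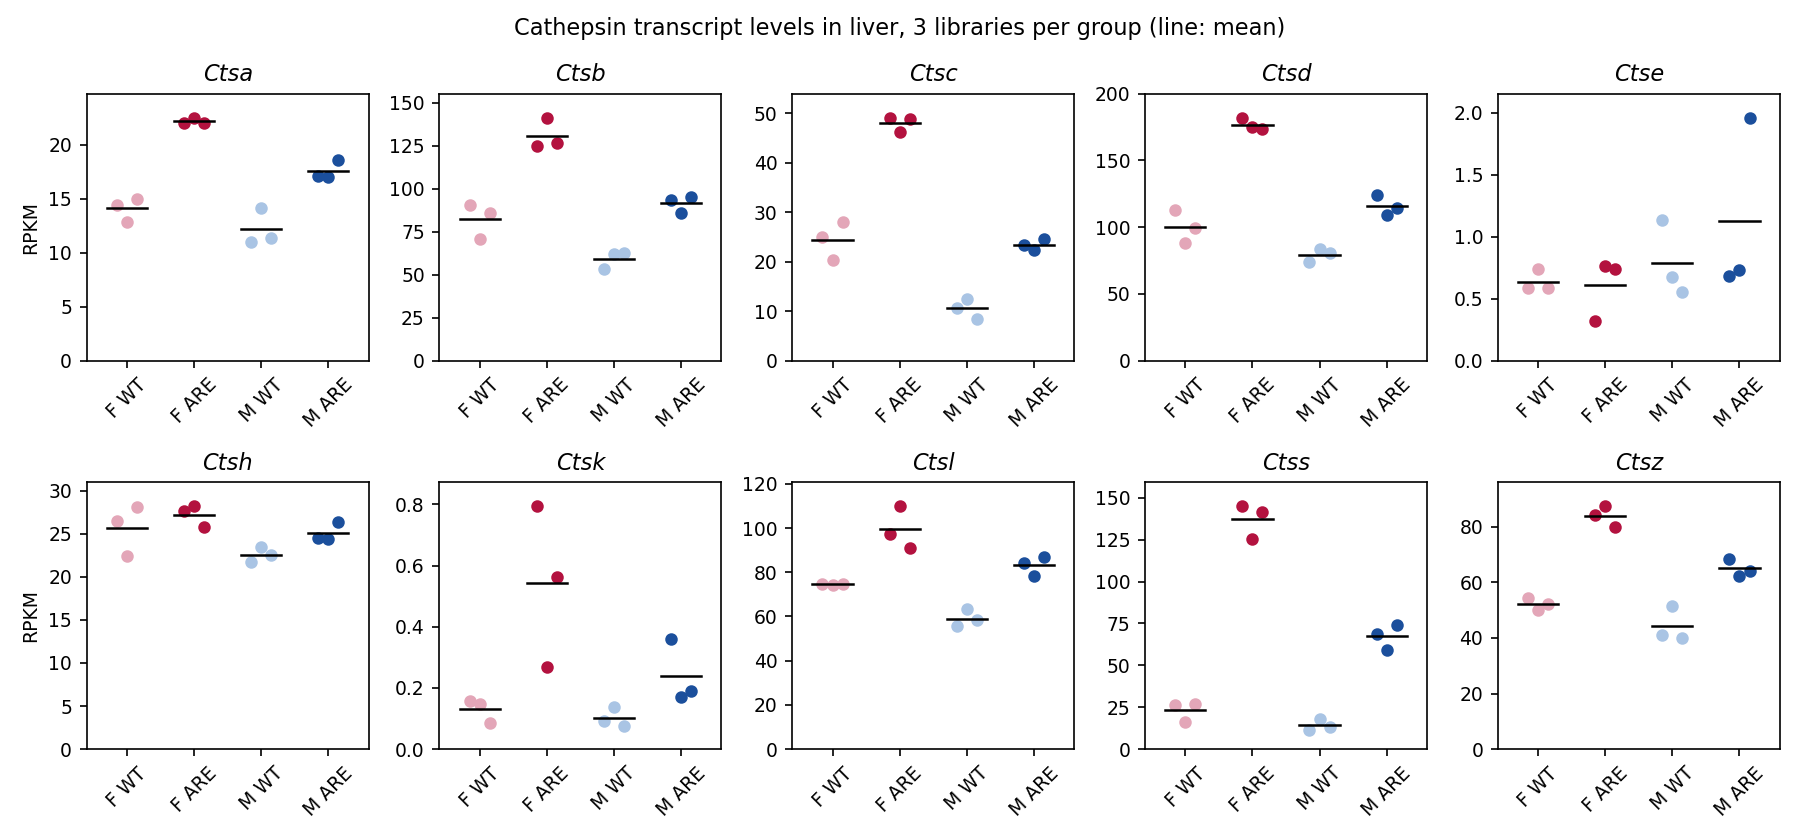
RPKM of each of the 10 cathepsins in the 12 libraries, with 1 panel per gene and its own vertical axis from 0, points for libraries and a line for the mean of each group of 3 (F female, M male, ARE for ARE-Del). Ctss shows the widest gap between genotypes, from 16.4 to 27.2 RPKM in female WT to 125 to 145 RPKM in female ARE-Del, while the Ctsh groups lie between 21.7 and 28.2 RPKM.

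In ARE-Del livers 7 cathepsins were higher than in WT in each sex: Ctss, Ctsc, Ctsd, Ctsz, Ctsb, Ctsa and Ctsl. Ctss stood out at 5.90 times the WT mean in females and 4.78 times in males, Ctsc reached 1.97 and 2.22 times, and the other 5 reached 1.33 to 1.77 times in females and 1.41 to 1.55 times in males. Ctsh and Ctse did not pass the test, and Ctsk was too low to be fitted. In limma's fit over 10568 tested genes (those with at least 0.5 RPKM in at least 3 libraries), 7 of the 9 tested members were called higher and none lower in females at a Benjamini-Hochberg adjusted p below 0.05, where 25.8% of tested genes were called higher, 5.53% lower and 31.3% in either direction. In males 7 of 9 were called higher, and again none lower, beside 19.5% of tested genes called higher, 2.04% lower and 21.5% in either direction. The median log2 difference of the 9 was 0.67 in females and 0.54 in males, and that of all tested genes was 0.09 and 0.10. The groups did not overlap for 7 of the 9 in females and 8 of the 9 in males, against 34.9% and 36.1% of tested genes with all ARE-Del libraries above all WT libraries.

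The scaling of the values bears on these figures. With median-of-ratios scaling the median of all genes moved from 0.09 to -0.01 in females and from 0.10 to -0.01 in males, and with quantile normalization to -0.07 and -0.05. The share of calls that were higher was 82.3% in females as deposited, 52.3% with median-of-ratios scaling and 39.3% with quantile normalization. In males it was 90.5%, 55.7% and 44.5%. The 7 cathepsins stayed higher and called under both scalings in both sexes, except that female Ctsl fell short with median-of-ratios scaling (0.25 log2, adjusted p = 0.0686).

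Among the cysteine endopeptidases, Ctss encodes cathepsin S, which stays active at neutral pH and cuts the invariant chain in macrophages and dendritic cells. Ctss measured 26.2, 16.4 and 27.2 RPKM in female WT libraries and 145, 125 and 141 RPKM in female ARE-Del libraries. Male WT libraries had 11.1, 18.2 and 13.0 RPKM and male ARE-Del libraries 68.8, 58.9 and 74.3 RPKM. Every ARE-Del library was thus far above every WT library, and the female ARE-Del libraries were above the male ones. On the log2(RPKM + 1) scale used for all tests, Ctss rose by 2.54 ± 0.19 (SE) in females (limma, adjusted p = 1.2e-06) and by 2.20 ± 0.19 in males (adjusted p = 1.2e-05). By size of rise it ranked 32 in females and 34 in males among the 10568 tested genes. Without the library that lacked Xist, the female rise was 2.60 (adjusted p = 6.7e-06).

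Ctsb encodes cathepsin B, an endopeptidase that also removes dipeptides from the carboxyl end. Its levels were 90.4, 70.6 and 85.7 RPKM in female WT, and 125, 141 and 126 RPKM in female ARE-Del. In males they were 53.2, 61.7 and 62.4 RPKM in WT and 93.6, 85.7 and 94.8 RPKM in ARE-Del. The genotypes did not overlap in either sex, but male ARE-Del livers reached only the level of female WT livers. Ctsb rose by 0.67 ± 0.11 log2 in females (limma, adjusted p = 0.00039) and by 0.62 ± 0.11 in males (adjusted p = 0.0013).

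Ctsl encodes cathepsin L, a broad lysosomal endopeptidase. The female WT values of 74.8, 74.5 and 74.6 RPKM had a coefficient of variation of 0.222%, and female ARE-Del had 97.5, 109.8 and 90.8 RPKM. Male WT had 55.5, 63.4 and 58.2 RPKM, and male ARE-Del 84.3, 78.4 and 87.1 RPKM. No ARE-Del value fell into the WT range of its sex. Ctsl rose by 0.40 ± 0.09 log2 in females (limma, adjusted p = 0.0034), the smallest of the 7 female rises, and by 0.49 ± 0.09 in males (adjusted p = 0.0017). It rose by 0.33 in females without the library that lacked Xist (adjusted p = 0.013).

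Ctsk encodes cathepsin K, the collagen-cutting protease of osteoclasts. It was listed at 0.156, 0.148 and 0.0861 RPKM in female WT and at 0.794, 0.269 and 0.562 RPKM in female ARE-Del. The male values were 0.0917, 0.137 and 0.0762 RPKM in WT and 0.360, 0.170 and 0.189 RPKM in ARE-Del. All ARE-Del values exceeded the WT values of their sex, at 4.17 times the WT mean in females and 2.36 times in males, though even the highest was below 1 RPKM. Only 2 libraries reached 0.5 RPKM, so Ctsk was compared by an exact 2-sided permutation test of the means, which gave p = 0.1 in each sex, the smallest p that 3 against 3 allows. Permuted within sex, with both sexes together, the exact p was 0.005, the smallest of 400 arrangements. Whether reads of its neighbour Ctss entered the Ctsk value was not tested.

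Among the cysteine exopeptidases, Ctsc encodes cathepsin C or dipeptidyl peptidase I, which activates the granzymes and other granule proteases. Ctsc measured 25.0, 20.3 and 28.1 RPKM in female WT and 49.1, 46.3 and 48.9 RPKM in female ARE-Del. Male WT libraries had 10.6, 12.5 and 8.50 RPKM, and male ARE-Del libraries 23.3, 22.4 and 24.5 RPKM. The male ARE-Del values lay inside the female WT range, so genotype and sex separated this gene to a like degree. The rise was 0.96 ± 0.13 log2 in females (limma, adjusted p = 0.00011) and 1.09 ± 0.13 in males (adjusted p = 0.00010).

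Ctsz encodes cathepsin Z, also called X, a carboxypeptidase of monocytes and macrophages among other cells. Its values were 54.2, 50.2 and 52.0 RPKM in female WT and 84.4, 87.4 and 80.0 RPKM in female ARE-Del. They were 41.1, 51.3 and 40.1 RPKM in male WT and 68.5, 62.3 and 64.2 RPKM in male ARE-Del. Again no library of one genotype reached the range of the other. Ctsz rose by 0.68 ± 0.09 log2 in females (limma, adjusted p = 0.00015) and 0.55 ± 0.09 in males (adjusted p = 0.0013).

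Ctsh encodes cathepsin H, mainly an aminopeptidase. It had 26.6, 22.4 and 28.1 RPKM in female WT and 27.6, 28.2 and 25.8 RPKM in female ARE-Del. Males had 21.7, 23.5 and 22.6 RPKM in WT and 24.6, 24.4 and 26.4 RPKM in ARE-Del. The female groups overlapped, and the male groups stood apart by less than 1 RPKM. The difference was 0.09 log2 in females, with a 95% interval of -0.10 to 0.27 (limma, adjusted p = 0.48), and 0.15 in males, with an interval of -0.04 to 0.33 (adjusted p = 0.24). These intervals leave room for a small rise but not for one of the size of Ctsb in either sex. The sign of the Ctsh difference itself turned with the scaling, to -0.06 in females and -0.01 in males at the lowest.

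Of the aspartic proteases, Ctsd encodes cathepsin D, a major lysosomal endopeptidase and the most abundant cathepsin message in each of the 4 groups. Its values were 113, 88.2 and 99.3 RPKM in female WT and 182, 175 and 173 RPKM in female ARE-Del. Male WT had 73.8, 83.6 and 81.0 RPKM and male ARE-Del 124, 109 and 114 RPKM. The genotypes were separate in both sexes, with a wider gap in females. Ctsd rose by 0.82 ± 0.10 log2 in females (limma, adjusted p = 3.6e-05) and by 0.54 ± 0.10 in males (adjusted p = 0.0019).

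Ctse encodes cathepsin E, an endosomal aspartic protease best known from stomach and immune cells. Its values were 0.584, 0.737 and 0.585 RPKM in female WT and 0.318, 0.763 and 0.737 RPKM in female ARE-Del. Males had 1.14, 0.672 and 0.555 RPKM in WT and 0.683, 0.732 and 1.96 RPKM in ARE-Del. The groups overlapped in both sexes, and male ARE-Del 3 was the only library near 2 RPKM. The difference was -0.04 log2 in females (95% interval -0.46 to 0.39, limma, adjusted p = 0.90) and 0.21 in males (-0.21 to 0.64, adjusted p = 0.47). Without male ARE-Del 3 the male difference was -0.05. The intervals reach differences of 0.39 and 0.64, so a moderate rise could not be told from none at this level of Ctse.

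Ctsa encodes cathepsin A, the serine carboxypeptidase that also protects lysosomal beta-galactosidase and neuraminidase. Its female values were 14.5, 12.9 and 15 RPKM in WT and 22, 22.5 and 22 RPKM in ARE-Del. Its male values were 11, 14.2 and 11.3 RPKM in WT and 17.1, 17.0 and 18.6 RPKM in ARE-Del. The ARE-Del libraries were above all WT libraries of either sex. Ctsa rose by 0.62 ± 0.09 log2 in females (limma, adjusted p = 0.00024) and 0.50 ± 0.09 in males (adjusted p = 0.0022).

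The 7 female calls stood without the library that lacked Xist. Besides Ctss and Ctsl, given above, the rises were then 0.99 log2 for Ctsc, 0.83 for Ctsd, 0.65 for Ctsz, 0.61 for Ctsb and 0.61 for Ctsa (limma, adjusted p = 0.00045, 0.00018, 0.00088, 0.0020 and 0.0012). Ctsh then had 0.06 and Ctse -0.11, again without passing (adjusted p = 0.67 and 0.74). Ctsk, which was not fitted, had a female ratio of means of 5.21 without that library.

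**Figure D2:**
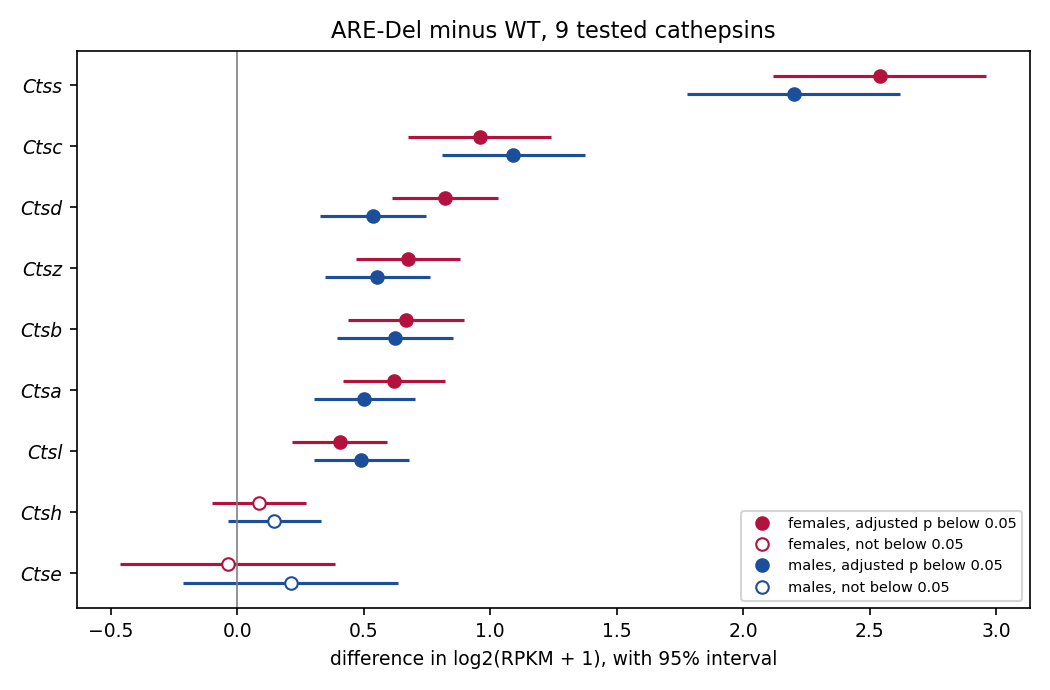
Difference between ARE-Del and WT in log2(RPKM + 1) for the 9 tested cathepsins in females and males, with 95% intervals from limma and filled points where the adjusted p was below 0.05. Ctss lies apart at 2.54 in females and 2.20 in males, 6 genes lie between 0.40 and 1.09, and the intervals of Ctsh and Ctse include 0.

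Whether the genotype difference itself depended on sex was tested as an interaction. None of the 9 members was called by limma, and none had an unadjusted p below 0.05 (of all tested genes 0.568% were called and 1231 had an unadjusted p below 0.05). No alternative setting called a member either. Ctsd came nearest, with a female rise larger by 0.28 log2 (95% interval -0.01 to 0.58, unadjusted p = 0.059, adjusted p = 0.46). For Ctss the female rise was larger by 0.34 (-0.26 to 0.94) and for Ctsc smaller by 0.13 (-0.53 to 0.26). These intervals are wide, so the test does not show that the sexes respond alike.

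Females had more cathepsin message than males in both genotypes. Among WT livers, 4 of the 9 tested members were called higher in females (Ctsc, Ctsb, Ctsl and Ctss) and none lower, beside 6.72% of tested genes called higher, 3.04% lower and 9.76% in either direction. Among ARE-Del livers 6 were called higher in females (Ctsc, Ctss, Ctsd, Ctsb, Ctsz and Ctsa) and none lower, beside 16.4% called higher, 6.02% lower and 22.4% in either direction. The groups did not overlap, with females higher, for 4 of 9 in WT and 7 of 9 in ARE-Del, against 18.9% and 26.7% of tested genes.

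Ctsc differed most between the sexes in WT livers, at 2.32 times the male mean. Its female minus male difference was 1.14 ± 0.13 log2 in WT (limma, adjusted p = 0.00014) and 1.01 ± 0.13 in ARE-Del (adjusted p = 0.00027), where the ratio of means was 2.06. For Ctss the WT groups overlapped (16.4 to 27.2 RPKM in females, 11.1 to 18.2 RPKM in males) and the difference was 0.68 ± 0.19 (adjusted p = 0.046). In ARE-Del livers Ctss was 2.04 times as high in females, with no overlap, and the difference was 1.02 ± 0.19 (adjusted p = 0.0028). Ctsb was higher by 0.47 ± 0.11 in WT (adjusted p = 0.016) and by 0.51 ± 0.11 in ARE-Del (adjusted p = 0.0045).

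The remaining tested members had smaller sex differences on the log2 scale, except that Ctsd exceeded Ctsb in ARE-Del. In limma's fit Ctsd was higher in females by 0.61 ± 0.10 log2 in ARE-Del (adjusted p = 0.00097), and by 0.32 ± 0.10 in WT without passing (adjusted p = 0.055). Ctsz had 0.36 ± 0.09 in ARE-Del (adjusted p = 0.017) and 0.24 in WT (adjusted p = 0.13). Ctsa had 0.32 ± 0.09 in ARE-Del (adjusted p = 0.027) and 0.20 in WT (adjusted p = 0.19). The reverse order held for Ctsl, which passed in WT (0.33 ± 0.09, adjusted p = 0.030) and not in ARE-Del (0.25 ± 0.09, adjusted p = 0.057). Ctsh differed by 0.17 in WT and 0.11 in ARE-Del and Ctse by -0.12 and -0.36, none past the threshold. Ctsk had exact permutation p-values of 0.3 in WT and 0.2 in ARE-Del between the sexes. Of the genes called in a single genotype, none passed the test of the interaction.

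Several of these sex calls were lost when single libraries were left out. In WT livers Ctsc was the only member called without any 1 of the 12 libraries. Without female WT 1, female WT 3 or male WT 1 a single member was left, and without male WT 3 there were 2. Without female WT 2 or male WT 2, 6 were called. Of all tested genes, 9.76% were called in either direction with all 12 libraries. In these fits the share was 6.2%, 7.71%, 5.06%, 7%, 10.7% and 7.79%, in the same order. Ctss passed in 3 of 12 such fits (without female WT 2, male WT 2 or male ARE-Del 2). Without female ARE-Del 2, the library that lacked Xist, its adjusted p was 0.052 at an unchanged difference of 0.68. Ctsb was lost without female WT 1 (0.39, limma, adjusted p = 0.068), female WT 3 (0.43, adjusted p = 0.053) or male WT 1 (0.39, adjusted p = 0.084). Ctsl was lost without female WT 1, female WT 3, male WT 1 or male WT 3, at 0.29 to 0.34 and adjusted p of 0.080, 0.071, 0.13 and 0.085. Gains were Ctsd and Ctsh without female WT 2 (0.41 and 0.26, adjusted p = 0.019 and 0.041) and Ctsa and Ctsz without male WT 2 (0.31 and 0.35, adjusted p = 0.043 and 0.026). The scaling moved WT sex calls too. Median-of-ratios scaling lost Ctsl (0.28, adjusted p = 0.079) and gained Ctsd (0.27, adjusted p = 0.040). Quantile normalization lost Ctss (0.60, adjusted p = 0.0504).

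The sex calls in ARE-Del livers were lost less often when single libraries were left out. Without the female library that lacked Xist 5 of the 6 stood, and Ctsa was lost (0.31, limma, adjusted p = 0.060). The differences that stood were then 1.04 for Ctsc, 1.08 for Ctss, 0.61 for Ctsd, 0.45 for Ctsb and 0.33 for Ctsz (adjusted p = 0.00090, 0.0057, 0.0031, 0.017 and 0.047). Ctsa was also lost without female ARE-Del 1 or 3 and male ARE-Del 1 or 2, at adjusted p of 0.061, 0.068, 0.075 and 0.087. Ctsz was lost without male ARE-Del 2 (0.33, adjusted p = 0.066), and Ctsl was gained without female ARE-Del 3 (0.31, adjusted p = 0.047). The genotype calls stood without any 1 library.

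**Figure D3:**
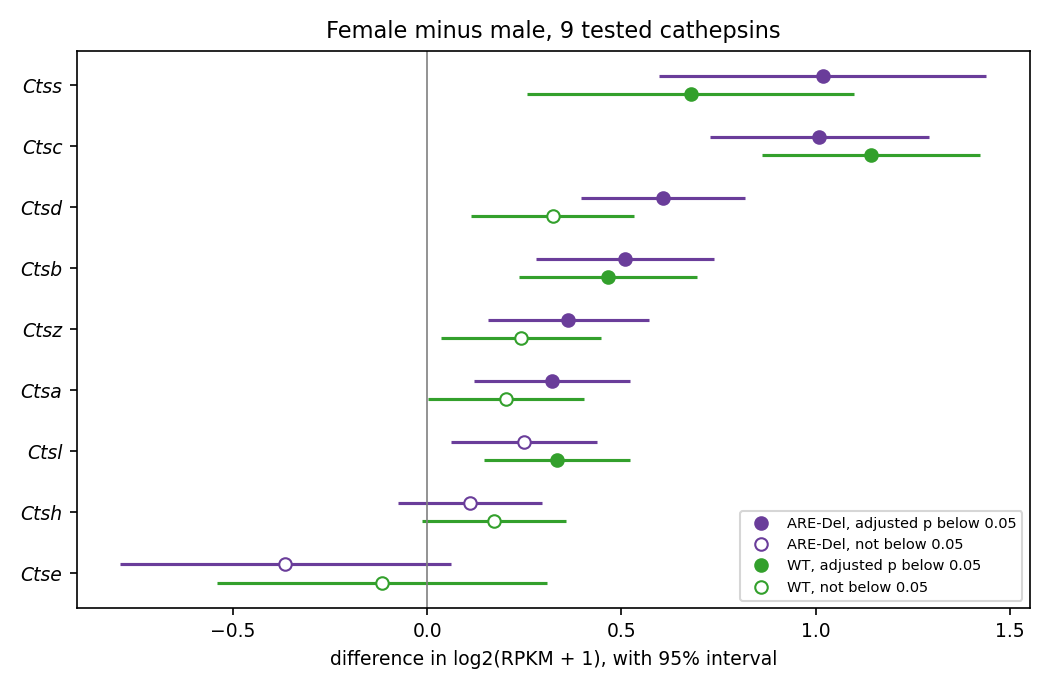
Female minus male difference in log2(RPKM + 1) for the 9 tested cathepsins within WT and within ARE-Del livers, with 95% intervals from limma and filled points where the adjusted p was below 0.05. Ctsc lies at 1.14 in WT and 1.01 in ARE-Del, and Ctss at 0.68 and 1.02, while Ctse lies below 0 in both without passing.

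The make-up of the cathepsin messages changed with genotype. The summed RPKM of the 10 genes in females was 397 ± 36.3 in WT and 726 ± 14.5 in ARE-Del, and in males 302 ± 25.2 and 490.3 ± 27.1. Of that sum, Ctss made up 5.79% ± 1.06 in WT females and 18.9% ± 1.64 in ARE-Del females. In males its share was 4.62% ± 0.809 and 13.7% ± 0.924. Ctss thus went from the seventh to the second most abundant cathepsin in females, where its 125 to 145 RPKM overlapped Ctsb, and from the sixth to the fourth in males, where it overlapped Ctsz.

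Other shares shrank although their genes did not fall. Ctsh went from 6.46% ± 0.328 to 3.75% ± 0.0959 in females and from 7.50% ± 0.327 to 5.13% ± 0.242 in males. Ctsl went from 18.9% ± 1.77 to 13.7% ± 1.11 in females and from 19.6% ± 0.306 to 17.0% ± 0.270 in males. None of these pairs of groups overlapped. Ctsd kept the largest share in every group mean, at 25.1% ± 1.2 and 24.3% ± 0.544 in females and 26.3% ± 0.910 and 23.6% ± 0.981 in males. The ratio of Ctss to Ctsl, a pair of endopeptidases, in females was 0.312 ± 0.0798 in WT and 1.39 ± 0.223 in ARE-Del, and in males 0.237 ± 0.0451 and 0.807 ± 0.0520. It was above 1 in the female ARE-Del libraries alone.

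**Figure D4:**
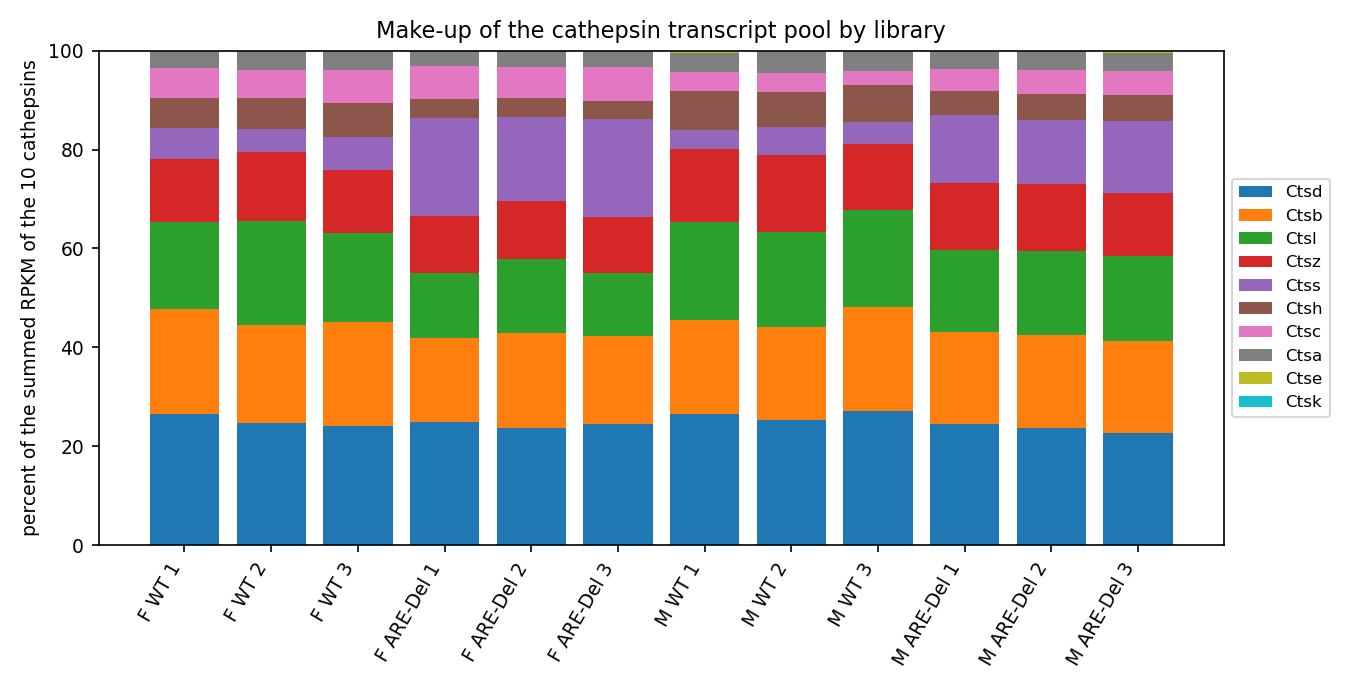
Share of each cathepsin in the summed RPKM of the 10 genes, 1 bar per library (F female, M male), each adding to 100%. The Ctss band takes 17.0% to 19.9% in female ARE-Del and 12.8% to 14.7% in male ARE-Del, against 3.98% to 6.62% in the WT libraries.

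The members also differed in how they varied over the 12 libraries. As a measure of likeness, each gene's log2(RPKM + 1) was centred on its own mean and the root mean square (RMS) difference between 2 genes was taken. The spread of a gene itself on that scale was 1.28 for Ctss, 0.76 for Ctsc, 0.42 to 0.43 for Ctsb and Ctsd, 0.28 to 0.36 for Ctsa, Ctsl and Ctsz, and 0.12 for Ctsh. The closest members were Ctsa and Ctsz, with an RMS difference of 0.07, and Ctsb and Ctsd, with 0.09. Ctss was distant from every member, Ctsc being nearest at 0.71. The libraries share genotype and sex, so likeness describes the pattern over 4 groups. Genes were not scaled to their own spread, so the size of their differences counts as well as the pattern.

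Among all other tested genes, the 3 nearest to Ctss were C1qb (RMS difference 0.18), Cd5l (0.18) and Zbp1 (0.22). C1qb and Cd5l are on the list of Kupffer cell markers described further on. Near to Ctsc were Cfp (0.22) and Ifit3 (0.23). Those of Ctsb were Leprot (0.07), Rgl1 (0.08) and Rab31 (0.09), and those of Ctsd were Leprot (0.06), Acot9 (0.06) and Pygb (0.06). Ctsa was nearest to Tm6sf1 (0.07), Man2b1 (0.07) and Coro7 (0.08), and Ctsz to Tnfrsf21 (0.08), Rhbdf2 (0.09) and Hpcal1 (0.09). For Ctsl they were Ogfr (0.05), Gpld1 (0.07) and Hs3st3b1 (0.07). Those of Ctsh, whose own spread was small, were Aga (0.05), Gltscr2 (0.05) and Supt4h1 (0.06). No gene was close to Ctse relative to its own spread of 0.27, the nearest being Dsg1c (0.21), Frat1 (0.21) and Spred2 (0.22).

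Markers of macrophages moved with the cathepsins. Of 11 Kupffer cell markers, all in the table and none at 0 throughout a group, 9 were called higher in ARE-Del in each sex, beside 25.8% of tested genes in females and 19.5% in males, and Cd163 was called lower in females (-1.48 log2, limma, adjusted p = 0.0034). Their summed level was 123 to 211 RPKM in female WT, 585 to 700 RPKM in female ARE-Del, 86.1 to 141 RPKM in male WT and 328 to 397 RPKM in male ARE-Del. Of 12 monocyte and macrophage markers, 10 were in the table, 9 were tested, and 9 were called higher in females and 8 in males. Of these, 3 (Ccr2, Cx3cr1 and Ms4a7) passed the filter only through ARE-Del libraries, and the other 6 were called in both sexes. Their summed level was 23.9 to 39.4, 199 to 243, 16.8 to 31.5 and 114 to 142 RPKM in the same order of groups. Between the sexes, 4 of the 11 Kupffer cell markers and 0 of the 9 monocyte and macrophage markers were called higher in female than male WT, beside 6.72% of tested genes. In ARE-Del livers 5 of 11 and 7 of 9 were called higher in females, beside 16.4%. Without the library that lacked Xist these were 5 and 8, with 1 Kupffer cell marker lower. In that fit 1789 of the 10568 tested genes were called higher. The 9 include Ccr2, Cx3cr1 and Ms4a7, which reached 0.5 RPKM in fewer than 3 WT libraries. The sex counts of the 9 in WT and in ARE-Del can therefore not be set against each other. In bulk liver, more cells of a type and more message per cell cannot be told apart. The part of these cells in the cathepsin differences was not tested.

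Against the summed Kupffer cell markers, Ctss had a ratio of 0.129 to 0.133 in female WT and 0.128 to 0.130 in male WT. The ratio was 0.179 to 0.248 in female ARE-Del and 0.173 to 0.189 in male ARE-Del, above every WT library. Against the summed monocyte and macrophage markers, it was 0.665 to 0.701 in female WT and 0.515 to 0.729 in female ARE-Del, which overlapped. In males it was 0.541 to 0.662 in WT and lower, at 0.484 to 0.522, in ARE-Del. Ctss was the only one of the 7 risen cathepsins with a higher mean ratio to the Kupffer sum in ARE-Del than in WT. Ctsc, for one, went from a mean ratio of 0.141 to 0.0742 in females and from 0.0989 to 0.0631 in males.

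Markers of other cell types were summed in the same way. The hepatocyte markers were 7 of 7 in the table, with none at 0. They summed to 33769 to 35832 RPKM in female WT and 41642 to 44433 RPKM in female ARE-Del. In males the sums were 23508 to 24577 RPKM in WT and 24279 to 32992 RPKM in ARE-Del. Alb made up most of these sums, at 26184.5 to 34499 RPKM in female and 16223 to 24327 RPKM in male libraries. Between genotypes, 2 of the 7 hepatocyte markers were called higher in ARE-Del females (median 0.17 log2), beside 25.8% of tested genes. In males 4 were called higher (median 0.44 log2), beside 19.5%, and none was called lower in either sex. Of the same 7, 2 were called higher in female than male WT (median 0.25 log2), beside 6.72% of tested genes. In ARE-Del livers 2 were called higher in females (median -0.05 log2), beside 16.4%. Dendritic cell markers (6 of 7 in the table, none at 0) summed to 0.432 to 0.919 RPKM in WT and 1.35 to 4.33 RPKM in ARE-Del libraries. T and NK cell markers (11 of 11, none at 0) summed to 1.02 to 2.56 RPKM in WT and 6.64 to 15.3 RPKM in ARE-Del. Neutrophil markers (7 of 8) summed to 1.18 to 5.20 RPKM in WT and 1.94 to 11.5 RPKM in ARE-Del. Mpo and Elane (listed as Ela2) were at 0 throughout female WT, Elane and Camp throughout male WT and Mpo throughout male ARE-Del. Endothelial markers (6 of 6, none at 0) summed to 22.1 to 45.4 RPKM in female WT, 33.2 to 54.4 RPKM in female ARE-Del, 19.4 to 26.3 RPKM in male WT and 27.4 to 44.6 RPKM in male ARE-Del. Of the 6 endothelial markers, 2 were called higher in ARE-Del in females (median 0.29 log2) and 1 in males (median 0.48 log2). The shares of tested genes beside them were 25.8% and 19.5%. The part of these other cell types in the cathepsin differences was not tested either.

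The machinery around the cathepsins is described by 9 gene lists. Counts as deposited are to be read beside the 25.8% of genes called higher in females and 19.5% in males. With median-of-ratios scaling, 1915 of the 10568 tested genes were called higher in females and 1217 in males. With quantile normalization these were 1616 and 923, and without the library that lacked Xist 2753 and 2120. Of the other cathepsins, 7 of 15 list entries were in the table and 4 tested. Apart from Ctsw, which the filter kept through ARE-Del libraries, 1 of 3 rose in each sex, namely Ctso. Ctso rose by 0.35 ± 0.09 log2 in females and 0.49 ± 0.09 in males (limma, adjusted p = 0.0072 and 0.0015). Ctsw, the cathepsin of cytotoxic lymphocytes, passed the filter only through female ARE-Del, so its female levels are given as values. They went from 0.169 ± 0.0705 to 0.834 ± 0.0915 RPKM. In males Ctsw rose by 0.30 ± 0.08 log2 (adjusted p = 0.016) but was lost with quantile normalization (0.11, adjusted p = 0.27). Ctsf and Tinagl1 (listed as Tinagl) did not pass in either sex.

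Of 12 entries for inhibitors of cathepsins 5 were tested, of which all 5 were called higher in females and 3 in males. The male count was 1 with median-of-ratios scaling, 2 with quantile normalization and 5 without the library that lacked Xist. The entry that merges Serpina3f and Serpina3g, the latter an inhibitor of cysteine cathepsins, went from 2.27 ± 0.949 to 29.2 ± 7.61 RPKM in females and from 1.46 ± 0.484 to 14.7 ± 1.39 RPKM in males (3.22 and 2.69 log2, limma, adjusted p = 8.1e-07 and 8.0e-06). Kng1, whose product kininogen holds cystatin domains, rose by 0.62 ± 0.13 in females (adjusted p = 0.0026) and had 0.38 ± 0.13 in males (adjusted p = 0.053, and 0.035 without that library). Ctla2a rose by 0.61 ± 0.11 in females and 0.35 ± 0.11 in males (adjusted p = 0.00083 and 0.035), and was lost in males with either other scaling (adjusted p = 0.067 and 0.15).

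Of 14 genes for lysosomal delivery, all tested, 8 were called higher in females and 4 in males. The male count was 3 with median-of-ratios scaling, 2 with quantile normalization and 5 without the library that lacked Xist. Psap, the prosaposin precursor that binds sortilin, rose by 1.00 ± 0.10 log2 in females and 0.78 ± 0.10 in males (limma, adjusted p = 1.1e-05 and 0.00021). Sort1, encoding sortilin, rose by 0.89 ± 0.15 in females (adjusted p = 0.00079) and had 0.14 in males (adjusted p = 0.54). M6pr, the cation-dependent mannose-6-phosphate receptor, rose by 0.42 ± 0.08 and 0.25 ± 0.08 (adjusted p = 0.0011 and 0.034), and was lost in males with either other scaling (adjusted p = 0.25 and 0.17). None of the 14 was called lower as deposited, but 2 were lower in females with median-of-ratios scaling and 3 with quantile normalization, beside 5 and 4 higher.

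On the list of other lysosomal proteases, which also holds the thiol reductase Ifi30, 5 of 7 tested genes rose in each sex. Lgmn, encoding the asparaginyl endopeptidase legumain, rose by 1.40 ± 0.17 log2 in females and 1.06 ± 0.17 in males (limma, adjusted p = 5.2e-05 and 0.00090). Ifi30, the lysosomal thiol reductase induced by interferon-gamma, rose by 1.39 ± 0.11 and 0.83 ± 0.11 (adjusted p = 1.2e-06 and 0.00018). Prcp, a carboxypeptidase, rose by 0.46 ± 0.08 and 0.29 ± 0.08 (adjusted p = 0.0010 and 0.026), and was lost in males with either other scaling (adjusted p = 0.069 and 0.19). With either, 4 rose in each sex, and with median-of-ratios scaling 1 fell in females.

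Of the granule proteases that cathepsin C activates, all 9 entries were in the table but only Gzma and Gzmb passed the filter. Both passed only through ARE-Del libraries, so that they had to differ and are given as values. Gzmb went from 0.364 ± 0.107 to 2.74 ± 0.537 RPKM in females and from 0.138 ± 0.0551 to 1.93 ± 0.309 RPKM in males. Gzma went from 0.199 ± 0.0608 to 2.24 ± 0.134 RPKM and from 0.112 ± 0.0713 to 1.82 ± 0.393 RPKM. Both are also on the list of T and NK cell markers, of which all 7 tested genes passed the filter only through ARE-Del. Of the partners of cathepsin A, Glb1 (beta-galactosidase) rose by 0.22 ± 0.05 log2 in females and 0.19 ± 0.05 in males (limma, adjusted p = 0.0088 and 0.027). Neu1 (neuraminidase) had 0.18 and 0.11 and did not pass (adjusted p = 0.13 and 0.39). Neither partner passed in either sex with median-of-ratios scaling or quantile normalization.

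Of the 8 tested genes of the MHC class II pathway, which cathepsin S serves, H2-Oa and the merged entry of Ciita passed the filter only through ARE-Del libraries. The other 6 rose in each sex as deposited and with either other scaling. H2-Oa was lost in males with quantile normalization (limma, adjusted p = 0.064). Cd74, the invariant chain itself, went from 23.9 ± 8.09 to 895 ± 202 RPKM in females and from 17.8 ± 4.38 to 790.1 ± 35.2 RPKM in males (limma, adjusted p = 1.2e-07 and 9.0e-08). H2-Eb1 rose by 4.76 ± 0.24 and 4.57 ± 0.24, and H2-Aa by 4.69 ± 0.27 and 4.81 ± 0.27. No gene of this list was called between the sexes in either genotype. Without the library that lacked Xist, 4 of the 8 were higher in female than male ARE-Del. In that fit 1789 of the 10568 tested genes were called higher. The 8 include H2-Oa and the entry of Ciita, which the filter kept through ARE-Del libraries.

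Of the 7 tested transcription factors tied to lysosomal or macrophage genes, Irf8 and Tfec (listed as Tcfec) passed the filter only through ARE-Del libraries. Of the other 5, all rose in females and 3 in males. Spi1, encoding PU.1 and listed as Sfpi1, rose by 1.63 ± 0.19 log2 in females and 1.23 ± 0.19 in males (limma, adjusted p = 4.1e-05 and 0.00082). Irf8, kept by the filter through ARE-Del libraries, is given as values. It went from 0.479 ± 0.103 to 3.00 ± 0.467 RPKM in females and from 0.351 ± 0.0790 to 1.61 ± 0.262 RPKM in males. Over all 7, the female count was 7, but 6 without the library that lacked Xist, which lost Tfeb (listed as Tcfeb, adjusted p = 0.071), and 5 with either other scaling. The male count was 5, but 4 with quantile normalization, which lost Tcfec (adjusted p = 0.13). Both counts include Irf8 and Tfec, which the filter kept for their ARE-Del values, so they are no test of a rise in those genes.

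Of the 16 subunits of the proton pump that acidifies lysosomes (V-ATPase), 7 were called higher in females and 6 in males. Atp6v0d2, a subunit of macrophages and osteoclasts, rose by 1.95 ± 0.31 log2 in females (limma, adjusted p = 0.00040), had 0.63 ± 0.31 in males (adjusted p = 0.16), and was higher in female than male WT by 2.0 ± 0.31 (adjusted p = 0.0014). Atp6v1b2 rose by 0.60 ± 0.08 and 0.41 ± 0.08 (adjusted p = 0.00010 and 0.0034), and Atp6v1e1 by 0.35 ± 0.08 and 0.34 ± 0.08 (adjusted p = 0.0056 and 0.012). With median-of-ratios scaling the counts were 5 and 3, and with quantile normalization 6 and 3, each with 1 lower in females. No gene of these 9 lists was called for the interaction.

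**Figure D5:**
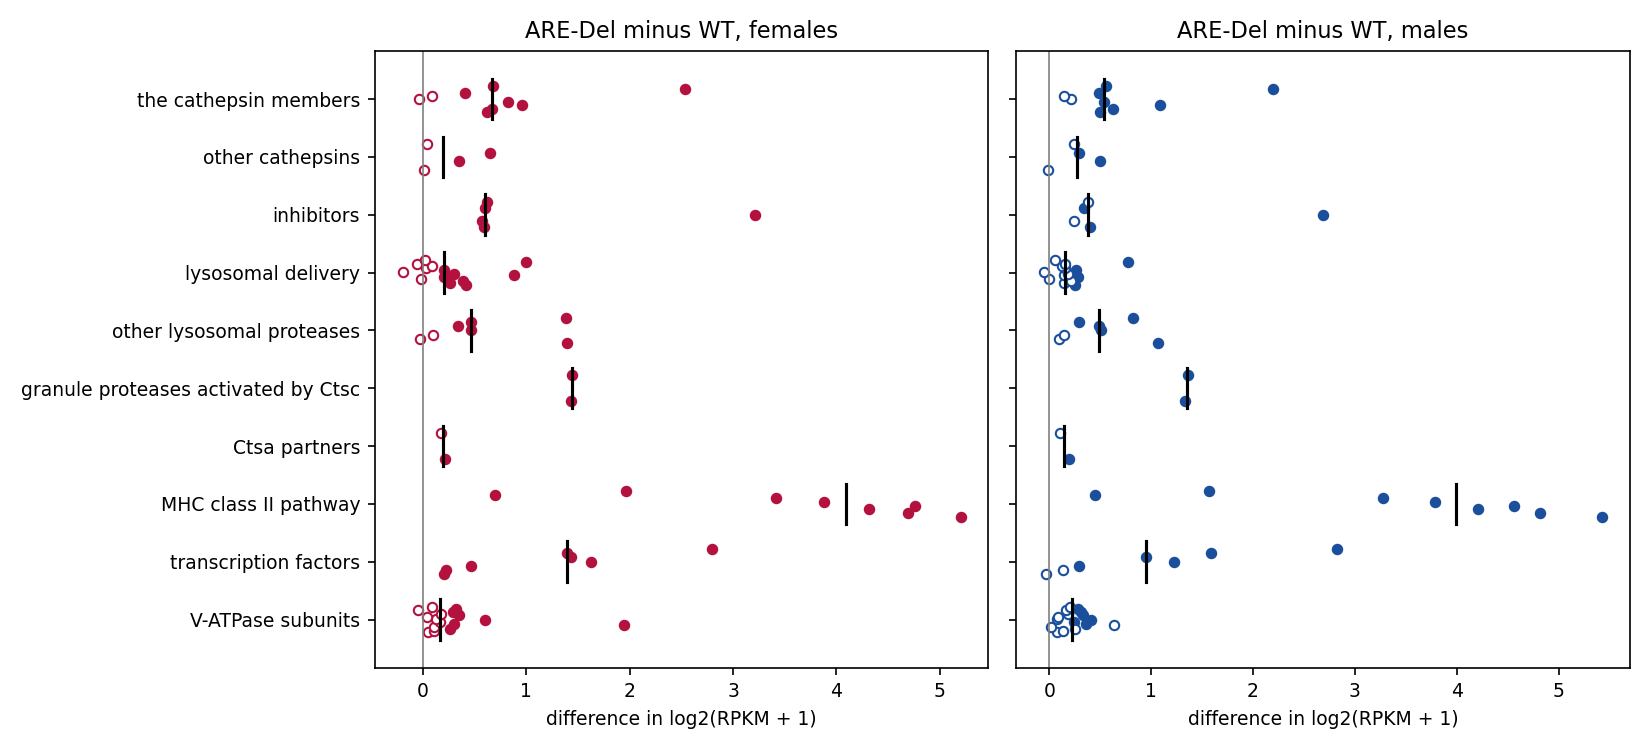
Difference between ARE-Del and WT in log2(RPKM + 1), females on the left and males on the right, for the 9 tested cathepsins and the tested genes of the 9 lists, with filled points where limma's adjusted p was below 0.05 and a bar at each median. The MHC class II genes have medians of 4.10 and 4.0, the cathepsins of 0.67 and 0.54, and the V-ATPase subunits of 0.17 and 0.22.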

How the data were processed

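The authors deposited 1 table of RPKM for 19852 genes in 12 liver libraries. Per the submitters' processing notes they used Trimmomatic 0.30, TopHat2 2.0.8, Partek and GenomeStudio 6.6 with the mm9 assembly. The counting rule is not given in the sources used here, nor its use of strand, so reads of overlapping or neighbouring genes may be shared. Read totals are not used here. Depth relative to female WT 1 (0.909 to 1.45) was estimated from the commonest ratio of low values.

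Genes with at least 0.5 RPKM in at least 3 libraries (10568) were fitted as log2(RPKM + 1) by limma 3.58.1 (R 4.3.3), using eBayes with trend and a mean for each of the 4 groups. Benjamini-Hochberg adjustment at 0.05 ran over all tested genes within each of 5 comparisons. Log2 differences understate change in genes near 1 RPKM. The script was tested on simulated data. Figures used Python 3.11.15 and matplotlib 3.10.9.

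The members and lists were chosen with earlier results of these data known, and the motifs with the sequences in view. The text names all members, up to 3 genes per list (the largest female change among those called in either sex, then the highest RPKM) and the 3 nearest genes of each tested member. A few genes named by this rule are counted but not reported here. Cd163, Ccr2, Cx3cr1, Ms4a7, H2-Oa, Ciita, Tfec, Tfeb, Ctsf, Mpo, Camp and Elane were named after their values were seen. Of 95 pathway and 85 marker entries, 11 and 4 had no match, and 1 merged with an unrelated gene was left out. The alternatives were 22 other settings, of which 12 left out 1 library each.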

Additional observations from a re-analysis of the deposited data

How the results depend on the processing

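The number of cathepsins called in the genotype comparisons was 7 in females without any 1 library and 6 to 8 under the other settings, and 7 in males throughout. For the interaction it was 0 throughout. Between female and male WT it was 4, with a range of 1 to 6 when single libraries were left out and 2 to 5 otherwise. Between female and male ARE-Del it was 6, with ranges of 4 to 6 and 6 to 7. Of all tested genes, 5.06% to 10.7% were called between WT sexes when single libraries were left out, and 4.08% to 13.7% otherwise. Between ARE-Del sexes these shares were 13.7% to 23.6% and 12.8% to 28.5%. The count of 8 in females was reached with no filter on low values, where limma also called Ctsk (0.43, adjusted p = 0.018). No pairing of the samples by replicate number was seen, though with groups of 3 the check cannot exclude it. Deviations of same-numbered libraries correlated at -0.291 to 0.245 over 18 pairs of libraries (median -0.0192). Those of different numbers correlated at -0.247 to 0.23 over 36, and 4 of 12 libraries correlated best with their own number. With a replicate block, 2 cathepsins were called between female and male WT in place of 4, with Ctsl (adjusted p = 0.055) and Ctss (adjusted p = 0.065) lost, and the other counts stood. The cause was not tested. Without the female library that lacked Xist the counts were 7, 7, 0, 3 and 5. Groups of 3 and unknown read totals limit what small differences can be seen, above all for Ctse and Ctsk. No listed alternative was left out.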
